A study of Saccharomyces cerevisiae with 9 samples.

Results

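The mating-type-specific genes of budding yeast were examined in 9 RNA-seq libraries of Saccharomyces cerevisiae. They were 10 of the 7122 genes in the count table, picked by name: the 6 a-specific genes MFA1, MFA2, STE2, STE6, AGA2 and BAR1, and the 4 alpha-specific genes MF(ALPHA)1, MF(ALPHA)2, STE3 and SAG1. All 10 were among the 6150 genes that passed the filter on low counts. The libraries came from 3 genotypes, with 3 libraries each: pah1Δ, dgk1Δ and the wild type (WT). All 3 genotypes share a prototrophic CEN.PK background and carry no other change that the labels name. PAH1 encodes an enzyme that dephosphorylates phosphatidate to diacylglycerol, and DGK1 encodes a kinase for the opposite step. Cells were frozen in log phase after growth in minimal medium with 2% glucose, and poly(A) RNA was sequenced. The labels give neither the mating type nor the ploidy of the strains, and do not say whether each deletion strain is 1 clone. Nor do they say that the replicates were separate cultures. The p-values therefore rest on the spread between these libraries, and that spread may be technical.

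Haploid yeast cells are either a or alpha. Each type makes its own pheromone and adhesion protein, and a receptor for the pheromone of the other type. The allele at the MAT locus sets this program. Its alpha allele encodes alpha1, which with the DNA-binding protein Mcm1 activates alpha-specific genes, and alpha2, which with Mcm1 and the corepressor Tup1-Cyc8 represses a-specific genes. In a cells both are absent and Mcm1 activates the a-specific genes. Silent copies of both alleles lie at HML and HMR, where the Sir proteins keep them off.

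The libraries held 9205454 to 12795803 counts over genes. PAH1 had 0 counts in each pah1Δ library, and DGK1 had 1 to 2 counts in each dgk1Δ library. WT replicate 1 stood apart from WT replicates 2 and 3. Its log2 deviation from the WT mean ran against gene length (Spearman correlation -0.746 across 5304 genes), while those of WT replicates 2 and 3 ran with it (0.694 and 0.607). In pah1Δ replicates 1 to 3 the correlation was 0.331, -0.682 and 0.64, and in dgk1Δ replicates 1 to 3 it was -0.138, 0.538 and -0.43. Stretches of chromosomes III and IX had higher RNA in dgk1Δ, so differences in dgk1Δ cannot be told apart from these stretches by the design. Values for neighbouring genes are given beside results in these stretches.

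The operators through which Mcm1 and alpha2 repress a-specific genes are shown first. They were read from the RefSeq genome, build R64, in the 600 bases before each start codon. In the lines below, capitals mark the outer half-sites, which hold the contacts of alpha2, and the CC and GG at the centre, where Mcm1 binds. Each line is written 5′ to 3′ on the strand that gives the same orientation.
MFA2: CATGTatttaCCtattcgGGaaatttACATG
STE2: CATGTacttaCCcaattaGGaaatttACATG
STE6: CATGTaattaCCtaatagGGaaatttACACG
AGA2: CGTGTaattaCCgtattcGGaaattACATG
BAR1: CATGTaattaCCgtaaaaGGaaattACATG

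The MFA2 operator lies at chrXIV:352163-352193 (plus strand), 251 to 221 bases before the start codon. That of STE2 lies at chrVI:82351-82381 (minus strand), 229 to 199 bases before it, and that of STE6 at chrXI:46477-46507 (minus strand), 212 to 182 bases before it. Those of AGA2 (chrVII:437102-437131, plus strand, 298 to 269 bases before the start codon) and BAR1 (chrIX:322078-322107, plus strand, 264 to 235 bases before it) are 30 bases long, where the other 3 are 31. The strict form of the operator was CNTGT, any 5 bases, CC, any 6 bases, GG, any 6 bases and ACANG, on either strand. It occurred before 4 of 5982 protein-coding genes (0.0669%) within 600 bases upstream and 50 bases downstream of the start codon: MFA2, STE2, STE6 and GYP8. A relaxed form with only the outer CNTGT and ACANG, 20 to 22 bases apart, also takes in every strict match, and was held by 1.96% of these windows. It was held by 5 of 6 a-specific genes, all but MFA1, and by 0 of 4 alpha-specific genes.

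The alpha-specific genes have another element, the Q box, to which alpha1 binds next to Mcm1. In the next lines its match to CAATGNCAG is in capitals, after the 17 bases that precede it, where the Mcm1 site is known to lie.
MF(ALPHA)2: tttcttcattggtacatCAATGCCAG
STE3: tttcctaattagtgtcaCAATGACAG
SAG1: tttggtgttttaccataCAATGGCAG

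The MF(ALPHA)2 sequence is at chrVII:345445-345470 (minus strand), with its Q box 300 to 292 bases before the start codon. The STE3 sequence is at chrXI:114943-114968 (plus strand, Q box 341 to 333 bases before), and the SAG1 sequence at chrX:445123-445148 (minus strand, Q box 270 to 262 bases before). CAATGNCAG was held, on either strand, by 2.44% of the windows, by 3 of 4 alpha-specific genes and by 0 of 6 a-specific genes. MF(ALPHA)1 held no match to any of the letters searched. TGAAACA, the pheromone response element that the activator Ste12 binds, was held by 15.9% of the windows, by 6 of 6 a-specific genes and by 2 of 4 alpha-specific genes, and in these 10 windows no such match overlapped an operator. In a window of 250 bases upstream the strict operator was held by STE2 and STE6 alone, the relaxed one by the same 2 members, CAATGNCAG by 0 of 10 members, and TGAAACA by 5 of 6 a-specific and 1 of 4 alpha-specific members. Such a match says only that the letters are present, and the lack of a match does not say that no site is there.

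**Figure D1:**
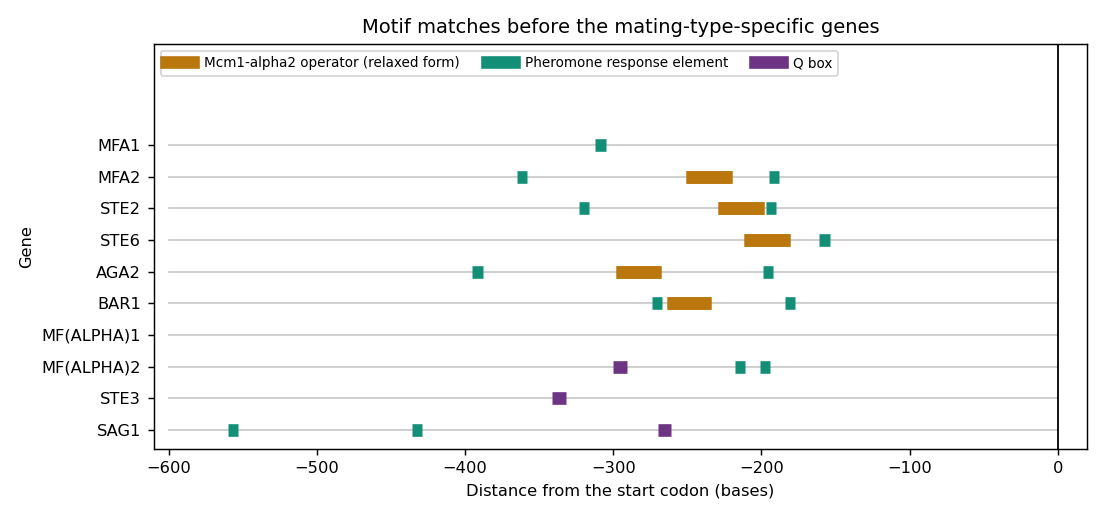
Position of each motif match (coloured blocks) in the 600 bases before the start codon, 1 line per gene, with the distance from the start codon in bases on the horizontal axis. The relaxed operator lies before 5 of 6 a-specific genes and the Q box before 3 of 4 alpha-specific genes, with no overlap between the 2 sets of genes.

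Of the listed genes, the a-specific ones were the highly expressed set in all 3 genotypes. Levels are compared between genes as FPKM, which scales counts by gene length and library total, as the authors deposited them. The a-specific genes summed to 3642 ± 132 FPKM in pah1Δ, 5103 ± 405 FPKM in dgk1Δ and 6440 ± 1016 FPKM in WT (SD, n = 3 each). The alpha-specific genes summed to 72.2 ± 1.77 FPKM in pah1Δ, 45.6 ± 0.529 FPKM in dgk1Δ and 41.9 ± 2.83 FPKM in WT. STE6 was the lowest of the listed a-specific genes in every library. It lay above the highest of the listed alpha-specific genes, MF(ALPHA)2 or SAG1, in all 9. STE6 had 48.5 to 62.3 FPKM in pah1Δ, where the highest listed alpha-specific gene had 20.9 to 21.8 FPKM. In dgk1Δ these ranges were 93.9 to 109 FPKM and 15.4 to 18.6 FPKM, and in WT they were 58.0 to 109 FPKM and 17.2 to 21.3 FPKM. This gap did not extend to mating-type-specific genes outside the list. ASG7, an a-specific gene, had 8.43 to 12.4 FPKM over the 9 libraries, and AFB1, a gene of alpha cells, had 11.91 to 38.11 FPKM.

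The order of the a-specific levels was the same in each genotype: MFA2, MFA1, STE2, AGA2, BAR1 and STE6. By group mean, MFA2 had 1666 ± 152 FPKM in pah1Δ, 2567 ± 268 FPKM in dgk1Δ and 3194 ± 571 FPKM in WT (SD, n = 3), and it ranked 45 to 169 of 7122 genes by FPKM over the 9 libraries. MFA1 and MFA2 overlapped in their libraries in WT, and BAR1 and STE6 did so in dgk1Δ and WT, so those neighbours in the order are not told apart there. Among alpha-specific genes the order differed between genotypes. STE3 came last in pah1Δ (12.8 ± 1.66 FPKM) and in WT (4.49 ± 0.866 FPKM), and MF(ALPHA)1 came last in dgk1Δ (5.48 ± 0.538 FPKM). In WT the libraries of MF(ALPHA)1 and STE3 overlapped, and in pah1Δ those of MF(ALPHA)2, MF(ALPHA)1 and SAG1 overlapped from each to the next.

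**Figure D2:**
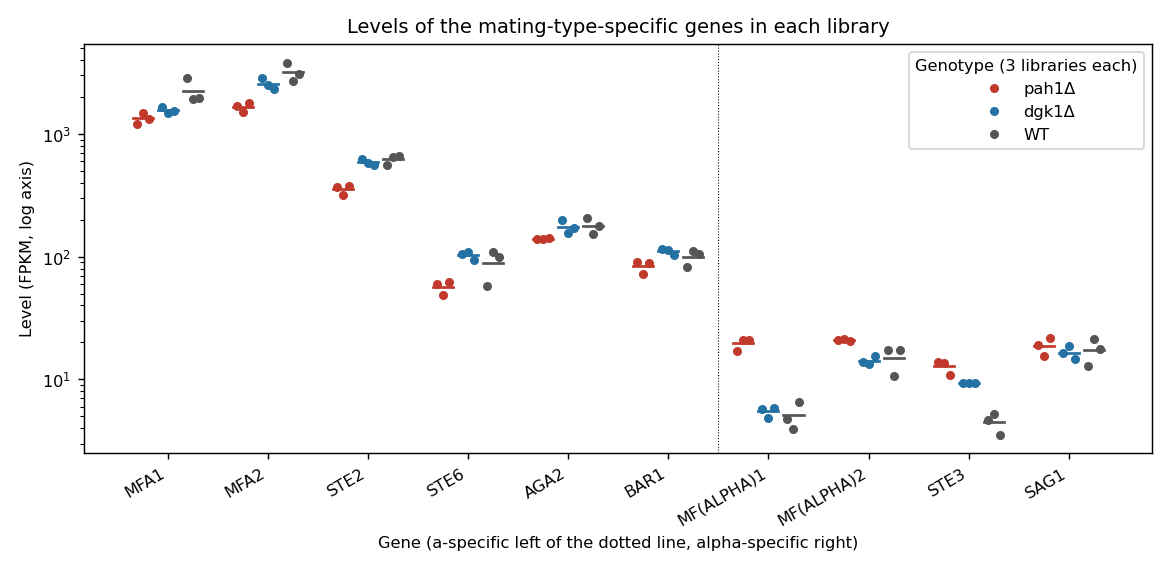
FPKM of each gene in each library on a log axis (points; the bar is the mean of 3 libraries), with the a-specific genes left of the dotted line and the alpha-specific genes right of it. STE6, the lowest of the a-specific genes shown, was at 48.5 FPKM or above, and no alpha-specific gene shown was above 21.8 FPKM.

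The MAT and silent cassettes gave a limited reading of mating type. In the R64 genome MATALPHA1 and HMLALPHA1 are identical over 528 bases, and MATALPHA2 and HMLALPHA2 over 633. All 4 were listed at 0 counts in all 9 libraries. How reads that match more than 1 place were counted is not given in the sources used here, so these zeros say nothing about alpha1 and alpha2 RNA. HMRA1, which encodes a1 and has no second copy in this genome, whose MAT locus carries the alpha allele, had 297, 316 and 180 counts in pah1Δ, 235, 313 and 232 in dgk1Δ, and 335, 199 and 179 in WT. RNA from an a allele at MAT would be counted there too. The groups overlapped, and HMRA1 was not called in pah1Δ against WT (log2 fold change 0.11, SE 0.212, edgeR quasi-likelihood test, Benjamini-Hochberg adjusted p = 0.728), in dgk1Δ against WT (0.05, adjusted p = 0.981) or in pah1Δ against dgk1Δ (0.06, adjusted p = 0.86). HMRA2, whose 360 bases all lie within MATALPHA2, had 0 to 5 counts.

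In pah1Δ against WT all 6 a-specific genes fell and 2 of 4 alpha-specific genes rose. Over all 6150 genes tested, 29.2% were called, 12.6% lower and 16.6% higher. Calls were made at an adjusted p under 0.05 in edgeR's quasi-likelihood test with Benjamini-Hochberg adjustment over all genes. The median log2 fold change was -0.78 over the a-specific genes and 0.89 over the alpha-specific genes, where the median over all genes was 0.001. The libraries of the 2 genotypes did not overlap, on the scale of the test, for 6 of 6 a-specific genes (all lower in pah1Δ; 17.4% of all genes) and for 3 of 4 alpha-specific genes (all higher; 22% of all genes). That scale is CPM, counts over library size after scaling by trimmed mean of M values (TMM). In these bulk samples, fewer cells of a type and less RNA per cell cannot be told apart.

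The precursors of a-factor, the lipid-modified pheromone of a cells, are encoded by MFA1 and MFA2. MFA2 (chrXIV:352414-352530) had 189, 170.0 and 206 CPM in pah1Δ, against 480.0, 314 and 363 CPM in WT. All pah1Δ libraries lay below all WT libraries, and WT replicate 1 was the highest. MFA2 fell by 1.04 on the log2 scale (SE 0.145, edgeR adjusted p = 0.000433), and over 21 alternative settings its log2 fold change ran from -1.17 to -0.85 with every call kept. MFA1 (chrIV:1385176-1385286) had 128, 160.0 and 143 CPM in pah1Δ, against 342, 214 and 221 CPM in WT. The groups again did not overlap, with WT replicate 1 far above the other WT libraries. MFA1 fell by 0.85 (SE 0.163, edgeR adjusted p = 0.003; -0.98 to -0.60 over the alternatives, all called). Both genes are short, at 117 and 111 bases of coding sequence, and WT replicate 1 is the library whose deviations ran most strongly against length. With the trend removed from all libraries the log2 fold changes were -1.12 for MFA2 and -0.95 for MFA1, and without WT replicate 1 they were -0.85 and -0.60, with both genes called in both fits. The longest run of bases the 2 genes share is 11.

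STE2, the receptor of alpha-factor on a cells, had the smallest adjusted p of the a-specific genes. STE2 (chrVI:82580-83875) had 460.0, 398 and 477 CPM in pah1Δ, against 772, 833 and 872 CPM in WT. The pah1Δ libraries were all far below the WT libraries, and WT replicate 1 was not the highest. STE2 fell by 0.89 (SE 0.0893, edgeR adjusted p = 3.88e-05; -1.01 to -0.80 over the alternatives, all called).

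STE6, the transporter that exports a-factor, had 221, 181 and 236 CPM in pah1Δ, against 241, 420.0 and 388 CPM in WT (chrXI:42423-46295). The groups did not overlap, but WT replicate 1 lay close to the pah1Δ libraries. STE6 is the longest of the 10 genes, at 3873 bases. It fell by 0.72 (SE 0.178, edgeR adjusted p = 0.0119). The call was lost with limma on log2 FPKM (adjusted p up to 0.0534), and leaving out 1 library at a time gave -0.92 to -0.56, all called. Without WT replicate 1 it was -0.92, and with the length trend removed it was -0.66.

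AGA2, the adhesion subunit of a-agglutinin, and BAR1, a secreted protease that degrades alpha-factor, changed least of the listed a-specific genes. AGA2 (chrVII:436570-436833) had 34.9, 35.7 and 36.8 CPM in pah1Δ, against 58.1, 40.6 and 47.7 CPM in WT. The pah1Δ libraries were close together and below all WT libraries. AGA2 fell by 0.45 (SE 0.134, edgeR adjusted p = 0.0276). It lost its call without WT replicate 1 or 3 or any 1 of the pah1Δ libraries (log2 fold change -0.57 to -0.30, edgeR adjusted p up to 0.0917). BAR1 (chrIX:322342-324105) had 152, 123 and 154 CPM in pah1Δ, against 157, 197 and 186 CPM in WT. WT replicate 1 was just above the highest pah1Δ library. BAR1 fell by 0.33 (SE 0.108, edgeR adjusted p = 0.0401), and this call was kept in only 9 of 21 alternatives. It was lost without pah1Δ replicate 1 or 2, without any 1 of the dgk1Δ libraries, or without WT replicate 2 or 3 (-0.42 to -0.24, adjusted p up to 0.118). Its direction was the same in all 21 alternatives.

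Of the alpha-specific genes, MF(ALPHA)1, the main gene of the secreted peptide pheromone alpha-factor, rose most. MF(ALPHA)1 (chrXVI:193648-194145) had 96, 98 and 107 counts in pah1Δ, against 30, 19 and 30 counts in WT, which is 8.17, 10.1 and 10.1 CPM in pah1Δ and 2.56, 1.97 and 3.29 CPM in WT. The counts were low, and every pah1Δ library held more than any WT library. MF(ALPHA)1 rose by 1.86 on the log2 scale (SE 0.216, edgeR adjusted p = 0.000111), a 3.63-fold difference, and ran from 1.70 to 2.04 over 20 alternatives, all called. A minimum mean CPM of 10 removed both alpha-factor genes from the test. MF(ALPHA)2 (chrVII:344791-345153), the minor alpha-factor gene, had 7.24, 7.42 and 7.3 CPM in pah1Δ, against 6.73, 3.84 and 6.36 CPM in WT. The groups did not overlap, and the test gave 0.37 (SE 0.208, edgeR adjusted p = 0.217). Leaving out 1 library gave 0.15 (without WT replicate 2) to 0.53 (without WT replicate 1), not called in either fit. The 2 genes share at most 23 bases in a row.

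STE3, the receptor of a-factor on alpha cells, had 18.8, 18.6 and 15.1 CPM in pah1Δ, against 7.15, 7.37 and 5.05 CPM in WT (chrXI:113215-114627). The pah1Δ libraries held 159 to 221 counts, and WT held 46 to 84. STE3 rose by 1.41 (SE 0.162, edgeR adjusted p = 0.000102; 1.27 to 1.51 over the alternatives, all called). It overlaps YKL177W on the opposite strand over 272 bases. No step named in the protocol marks the strand, and the strand setting of the counting is not given. Reads in the overlap may therefore come from either gene. YKL177W had 0 to 15 counts per library. SAG1, alpha-agglutinin, the partner of AGA2 in cell adhesion (chrX:442909-444861), had 35.5, 29.1 and 41.6 CPM in pah1Δ, against 26.8, 41.4 and 34.7 CPM in WT. The groups overlapped and SAG1 was not called (0.05, SE 0.171, edgeR adjusted p = 0.853).

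A pair of other mating-type-specific genes was measured beside these. AFB1, which encodes an a-factor barrier protein of alpha cells, had 20, 18.6 and 25.1 CPM in pah1Δ, against 12.5, 8.1 and 8.12 CPM in WT, and rose by 1.14 (SE 0.183, edgeR adjusted p = 0.0011). It overlaps YLR041W on the opposite strand over 206 bases, which had 18 to 47 counts. ASG7, an a-specific gene whose product acts on pheromone signalling in the zygote, had 6.3, 6.08 and 6.16 CPM in pah1Δ, against 8.09, 5.29 and 5.82 CPM in WT. Its libraries overlapped and it was not called (-0.06, SE 0.182, edgeR adjusted p = 0.838), with a sign that depended on the scaling (0.04 with library size only).

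**Figure D3:**
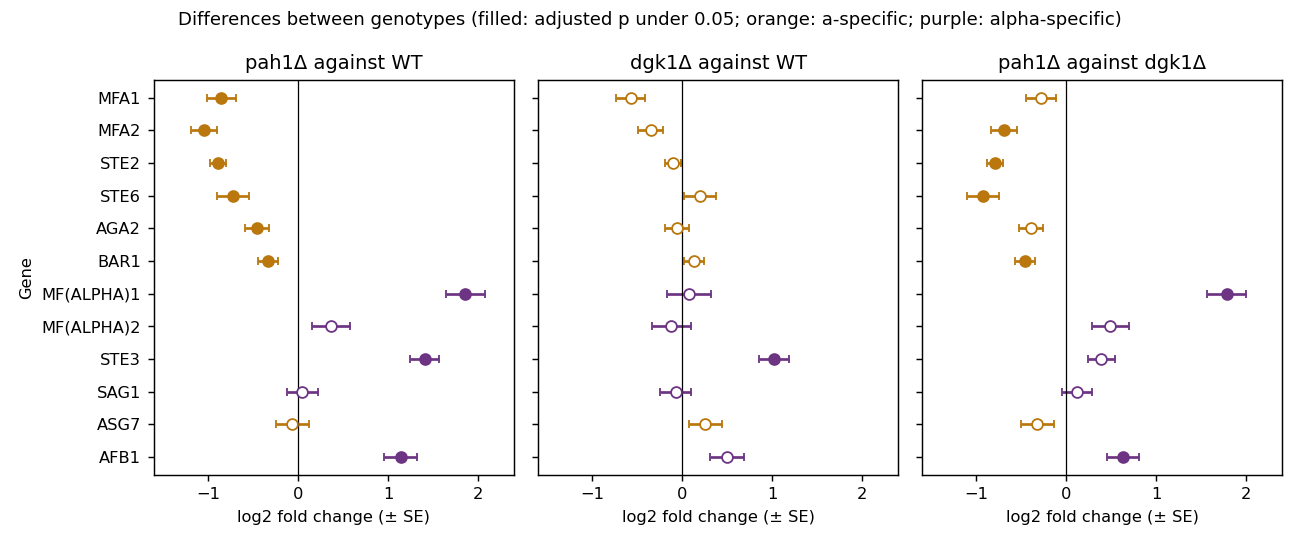
Log2 fold change of each gene in each comparison, with the SE as error bars; filled points had an edgeR adjusted p under 0.05, orange is a-specific and purple alpha-specific. In pah1Δ against WT the 6 a-specific genes of the list lie between -1.04 and -0.33 and MF(ALPHA)1 and STE3 at 1.86 and 1.41, while in dgk1Δ against WT STE3 alone is filled, at 1.02.

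In dgk1Δ against WT, STE3 rose and the other 9 genes did not pass the test. Of the 6 a-specific genes edgeR called 0, with 2 at an unadjusted p under 0.05, while DESeq2 called 1 and limma-voom 0. The comparison shares its WT libraries with that of pah1Δ. Over all genes 1.92% were called, 1.64% higher and 0.276% lower. The median log2 fold change was -0.08 over the a-specific genes and 0.01 over the alpha-specific genes, against 0.005 over all genes. STE3 had 13.4, 13.2 and 13.4 CPM in dgk1Δ, against 7.15, 7.37 and 5.05 CPM in WT. The dgk1Δ libraries were nearly level and all above WT. STE3 rose by 1.02 (SE 0.164, edgeR adjusted p = 0.00504; 0.87 to 1.10 over 21 alternatives, all called). Among the others, only MFA1 had libraries that did not overlap with WT (1 of 6 a-specific genes lower; 7.19% of all genes). STE3 was the 1 of 4 alpha-specific genes whose libraries were all higher (9.15% of all genes).

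MFA1 had 184, 166 and 174 CPM in dgk1Δ, against 342, 214 and 221 CPM in WT. All dgk1Δ libraries lay below all WT libraries, and WT replicate 1 was far above the rest. The log2 fold change was -0.57 (SE 0.162, edgeR adjusted p = 0.181, unadjusted p = 0.00507). DESeq2 called it, as did the fit with the length trend removed, and without WT replicate 1 its value was -0.32 and it was not called. MFA2 had 337, 292 and 280.0 CPM in dgk1Δ, against 480.0, 314 and 363 CPM in WT. The groups overlapped and the log2 fold change was -0.35 (SE 0.143, edgeR adjusted p = 0.482), and -0.16 without WT replicate 1. STE2 gave -0.10 (SE 0.0884, adjusted p = 0.838), STE6 0.20 (SE 0.176, adjusted p = 0.843), AGA2 -0.06 (SE 0.132, adjusted p = 0.949) and BAR1 0.13 (SE 0.108, adjusted p = 0.832), all by edgeR. MF(ALPHA)1 gave 0.08 (SE 0.242, edgeR adjusted p = 0.967), with 29, 31 and 29 counts in dgk1Δ and 30, 19 and 30 in WT. MF(ALPHA)2 gave -0.12 (SE 0.215, adjusted p = 0.938) and SAG1 -0.07 (SE 0.171, adjusted p = 0.956). AFB1 had 13.8, 13.6 and 13.7 CPM in dgk1Δ, all above WT, and was not called (0.50, SE 0.188, edgeR adjusted p = 0.404); without WT replicate 1 it was called (0.75, adjusted p = 0.0295). ASG7 was not called (0.26, adjusted p = 0.795).

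In pah1Δ against dgk1Δ, the direct test of whether the 2 deletions differ, 4 of 6 a-specific genes were lower in pah1Δ and 1 of 4 alpha-specific genes was higher. Over all genes 25.1% were called, 10.8% lower and 14.2% higher. The median log2 fold change was -0.57 over the a-specific genes and 0.44 over the alpha-specific genes, against 0.003 over all genes. STE6 had 221, 181 and 236 CPM in pah1Δ, against 412, 422 and 371 CPM in dgk1Δ, a wide gap with no overlap (-0.92, SE 0.178, edgeR adjusted p = 0.00363). STE2 had 460.0, 398 and 477 CPM in pah1Δ, against 815, 752 and 741 CPM in dgk1Δ (-0.79, SE 0.0891, edgeR adjusted p = 9.64e-05). MFA2 gave -0.69 (SE 0.144, adjusted p = 0.00563) and BAR1 -0.46 (SE 0.108, adjusted p = 0.0103). These 4 calls were kept in all 21 alternatives. MF(ALPHA)1, at 8.17, 10.1 and 10.1 CPM in pah1Δ and 2.88, 2.43 and 2.96 CPM in dgk1Δ, was 3.44-fold higher in pah1Δ (1.78, SE 0.213, edgeR adjusted p = 0.000138).

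The other 5 genes did not pass in this comparison. AGA2 gave -0.39 (SE 0.134, edgeR adjusted p = 0.0582) and MFA1 -0.28 (SE 0.163, adjusted p = 0.238). STE3, which rose in both deletions against the same WT libraries, had 18.8, 18.6 and 15.1 CPM in pah1Δ, against 13.4, 13.2 and 13.4 CPM in dgk1Δ. The pah1Δ libraries were all higher, and the test gave 0.39 (SE 0.151, edgeR adjusted p = 0.086). MF(ALPHA)2 gave 0.49 (SE 0.209, adjusted p = 0.115) and SAG1 0.12 (SE 0.17, adjusted p = 0.664). All 6 a-specific genes had lower CPM in every pah1Δ library than in any dgk1Δ library (23.4% of all genes), and 3 of 4 alpha-specific genes had higher CPM (25.2% of all genes). AGA2 was called without WT replicate 1 or 2, MFA1 and STE3 without WT replicate 1, and MF(ALPHA)2 without WT replicate 2, which enter this test through the shared estimate of the spread. Their log2 fold changes over such fits stayed within -0.47 to -0.29, -0.37 to -0.21, 0.33 to 0.49 and 0.44 to 0.57. AFB1 was higher in pah1Δ (0.63, SE 0.177, edgeR adjusted p = 0.0232), a call lost without pah1Δ replicate 1 or 3 or any 1 of the dgk1Δ libraries (0.50 to 0.72, adjusted p up to 0.0965).

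The ratio of the summed a-specific to the summed alpha-specific FPKM put the 3 genotypes in separate ranges. It was 50.1 to 51.1 in the pah1Δ libraries, 106 to 123 in the dgk1Δ libraries and 135 to 192 in the WT libraries. The pah1Δ libraries were nearly equal and the WT libraries were widest apart, with WT replicate 1 at 192. MFA1 and MFA2 make up most of the a-specific sum, so the ratio weighs these 2 short genes most, and no test was run on it.

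**Figure D4:**
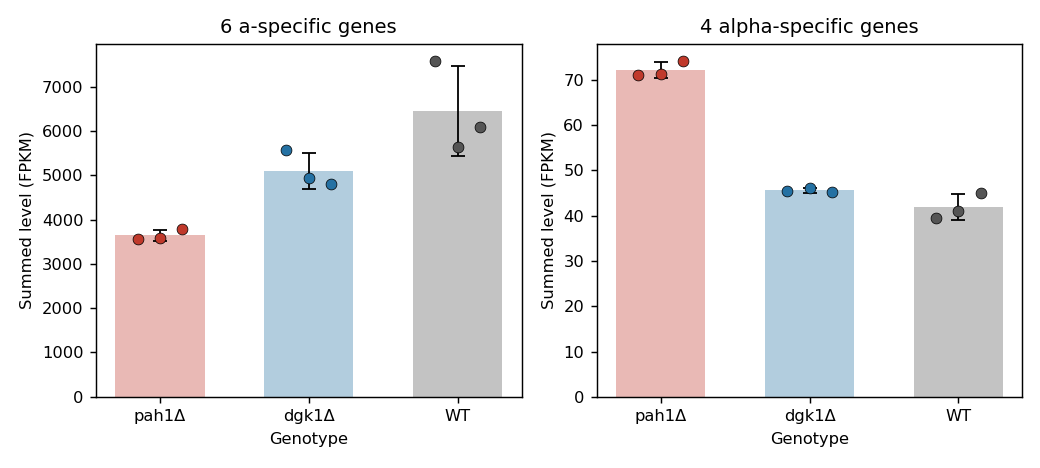
Summed FPKM of the 6 a-specific genes (left) and the 4 alpha-specific genes (right) in each library (points), with bars at the mean and error bars of 1 SD (n = 3). The a-specific sum was 3642 in pah1Δ, 5103 in dgk1Δ and 6440 in WT, and the alpha-specific sum was 72.2, 45.6 and 41.9 in the same order of genotypes.

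The position of the genes on the chromosomes was set beside these values, since long stretches were raised in dgk1Δ. For 9 of the 10 genes, the median log2 fold change of the 10 tested genes on either side lay between -0.12 and 0.08 in every comparison. BAR1 was the exception. In dgk1Δ against WT, 0 of the 10 genes at lower coordinates were called and their median was -0.05, while 9 of the 10 genes at higher coordinates were called higher, with a median of 0.90. BAR1 itself was at 0.13 and lies where the 2 sides meet. In pah1Δ against WT, where BAR1 was at -0.33, the medians were -0.19 at lower and 0.04 at higher coordinates. There the nearest 5 genes on either side had a median of -0.37, with 4 of 10 called lower and 1 called higher. For pah1Δ against dgk1Δ, where BAR1 was at -0.46, the medians were -0.15 on the side of lower coordinates and -1.0 on the other. The part of this stretch in the BAR1 result was not tested. The STE3 neighbours in dgk1Δ against WT had a median of -0.07, with 0 of 20 called.

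**Figure D5:**
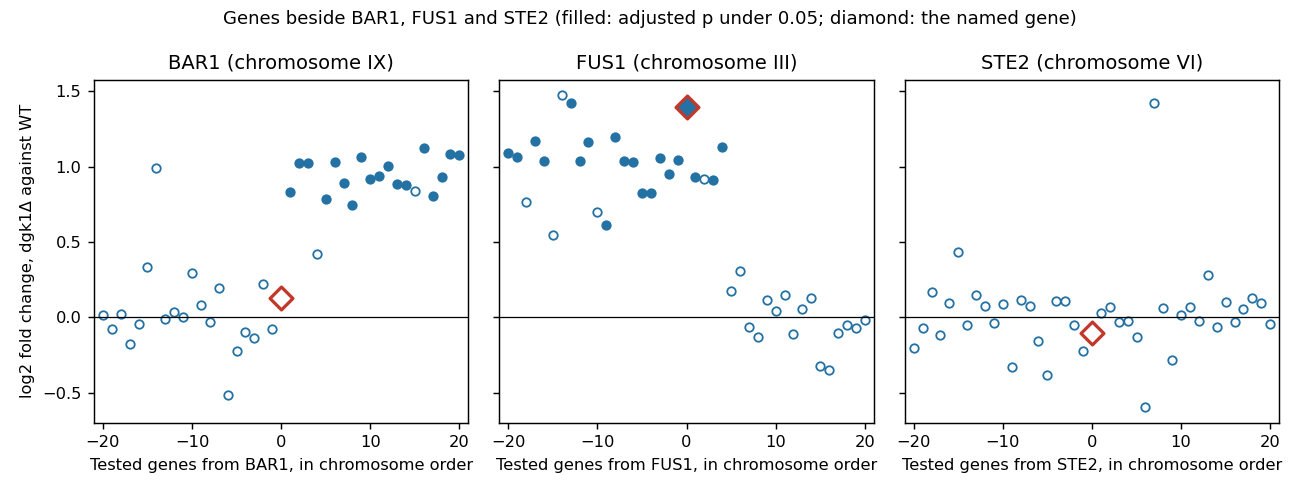
Log2 fold change of dgk1Δ against WT for up to 20 tested genes on either side of BAR1, FUS1 and STE2 in chromosome order (diamond, the named gene; filled points, edgeR adjusted p under 0.05). Beside BAR1 the genes at higher coordinates are at a median of 0.92 and those at lower coordinates at 0; beside STE2 none is called.

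Of 8 genes that regulate mating type or silence the spare cassettes, 1 rose and 1 fell in pah1Δ against WT, with a median of -0.16. Of all genes 29.2% were called in this comparison, 16.6% higher and 12.6% lower, so the count is near the background and is no result about these regulators. SIR1, which helps to establish silencing at HML and HMR, rose by 0.36 (edgeR adjusted p = 0.0155), and SIR2, the silencing deacetylase, fell by 0.25 (adjusted p = 0.0319); SIR2 overlaps YDL041W on the opposite strand over 344 bases. SIR1 lost its call without pah1Δ replicate 1 (adjusted p up to 0.0535), and SIR2 in 11 of 21 alternatives, among them those without pah1Δ replicate 1 or 2, dgk1Δ replicate 1 or 3, or WT replicate 2 or 3 (-0.29 to -0.22, adjusted p up to 0.101). STE12, the activator of pheromone-induced genes, was at -0.54 (adjusted p = 0.0546), and MCM1 at -0.04 (adjusted p = 0.887). By edgeR, DESeq2 and limma-voom 0 of 8 were called in dgk1Δ against WT, and 0 were at an unadjusted p under 0.05. STE12 alone was called in pah1Δ against dgk1Δ, at -0.58 (adjusted p = 0.0463), a call kept in 11 of 21 alternatives; leaving out pah1Δ replicate 1 or 2, any 1 of the dgk1Δ libraries or WT replicate 3 ended it (-0.75 to -0.43, adjusted p up to 0.147).

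Among 10 genes that process the pheromones, 2 fell and 1 rose in pah1Δ against WT (median -0.14), again near the 29.2% called of all genes. RCE1, the protease that trims prenylated a-factor, fell by 0.56 (edgeR adjusted p = 0.00914; called in all 21 alternatives), and STE14, the methyltransferase of the same pathway, fell by 0.41 (adjusted p = 0.0299). STE13, which trims the alpha-factor precursor, rose by 0.44 (adjusted p = 0.0464). STE14 was called in 13 of 21 alternatives and not without any 1 of the pah1Δ libraries or without dgk1Δ replicate 3 (-0.50 to -0.23, adjusted p up to 0.0848). STE13 was also called in 13, and not without pah1Δ replicate 1 or 3, any 1 of the dgk1Δ libraries or WT replicate 1 (0.27 to 0.54, adjusted p up to 0.138). By the same 3 tools 0 of 10 were called in dgk1Δ against WT, and 0 were at an unadjusted p under 0.05. RCE1 was also lower in pah1Δ than in dgk1Δ (-0.47, adjusted p = 0.0222), without a call when pah1Δ replicate 1 or 2 or dgk1Δ replicate 2 or 3 was left out (-0.55 to -0.41, adjusted p up to 0.0963).

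Of the 17 genes of the signalling core downstream of the receptors, 3 fell and 2 rose in pah1Δ against WT (median -0.07), also near the 29.2% called of all genes. STE4, the beta subunit of the G protein, fell by 0.50 (edgeR adjusted p = 0.00019), and FAR1, which arrests the cell cycle and orients growth toward a partner, fell by 0.56 (adjusted p = 0.000474). The 20 neighbours of FAR1 had a median of 0.55, with 11 called higher. GPA1, the alpha subunit, fell by 0.21 (adjusted p = 0.0471), a call kept in 7 of 21 alternatives (-0.31 to -0.12, adjusted p up to 0.278), and lost without pah1Δ replicate 1 or 3, any 1 of the dgk1Δ libraries or WT replicate 2 or 3. The kinase genes STE11 and KSS1 both rose by 0.44 (adjusted p = 0.00527 and 0.00979). Calls for STE4, FAR1, STE11 and KSS1 were kept in all 21 alternatives. STE50, an adaptor of Ste11, alone was called in dgk1Δ against WT, at 0.83 (adjusted p = 0.000525), and its 20 neighbours on chromosome III had a median of 1.03 with 15 called higher. Between pah1Δ and dgk1Δ 4 of 17 were lower in pah1Δ (10.8% of all genes), namely FAR1 (-0.58), STE12 (-0.58), STE50 (-0.63) and STE4 (-0.35), and KSS1 was higher (0.60; 14.2% of all genes). In this comparison the neighbours of STE50 had a median of -0.85, with 13 of 20 called lower, and those of FAR1 a median of 0.44, with 10 of 20 called higher.

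Genes induced by pheromone changed in both directions in pah1Δ against WT: 6 rose and 3 fell of the 18 tested among 20 listed, with a median of 0.06, where 16.6% of all genes rose and 12.6% fell. PRM5 rose by 1.68 (edgeR adjusted p = 1.49e-05), PRM10 by 1.26 (1.63e-05), PRM4 by 1.25 (1.19e-05) and PRM8 by 0.89 (4.43e-05), all named for pheromone regulation. PRM10 overlaps YJL107C by 4 bases. The other 5 called genes are named here after their values were seen. SST2, which turns the G protein off, fell by 0.85 (adjusted p = 0.00174), FIG2, a wall adhesin of mating cells, by 0.58 (adjusted p = 0.0294), and FUS1, needed for cell fusion, by 0.42 (adjusted p = 0.0168). KAR4, a transcription factor of karyogamy, and MSG5, a phosphatase of the pathway's kinases, both rose by 0.28 (adjusted p = 0.02 and 0.023). FIG2, FUS1, KAR4 and MSG5 each lost their call in some fits with 1 library left out (adjusted p up to 0.0938, 0.0746, 0.0548 and 0.0834). These were the fits without pah1Δ replicate 1 or 2 or WT replicate 2 or 3 for FIG2, pah1Δ replicate 1 for FUS1, pah1Δ replicate 2 or 3 or WT replicate 3 for KAR4, and pah1Δ replicate 1 or 3 or WT replicate 3 for MSG5.

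FUS1 and KAR4 were the pheromone-induced genes called in dgk1Δ against WT, and both lie in the raised stretch of chromosome III. FUS1 had 43.0, 41.5 and 39.1 CPM in dgk1Δ, against 15.2, 16.2 and 15.6 CPM in WT (1.40, SE 0.104, edgeR adjusted p = 2.39e-05). The 20 genes beside it had a median of 0.87, with 12 called higher. KAR4 had 112, 106 and 110.0 CPM in dgk1Δ, against 48.4, 54.1 and 51.1 CPM in WT (1.10, SE 0.0763, edgeR adjusted p = 1.89e-05), and its 18 neighbours had a median of 0.96, with 14 called higher. FUS1 lies near an edge of the stretch: the 10 genes at lower coordinates had a median of 0.99 with 9 called higher, and the 10 at higher coordinates a median of 0.24 with 3 called higher. The part of the stretch in these results was not tested. Of the 18 genes 5 were higher and 6 lower in pah1Δ than in dgk1Δ (14.2% and 10.8% of all genes), with FUS1 at -1.82, KAR4 at -0.82, PRM4 at 1.37 and PRM10 at 1.16. There the neighbours of FUS1 had a median of -0.67 with 11 of 20 called lower, and those of KAR4 a median of -1.14 with 16 of 18 called lower.

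The genes whose profile over the 9 libraries was nearest to the mean of the 6 a-specific genes were BMT6, SDA1 and SUC2. The measure was the root mean square difference of log2 CPM centred on the WT mean, over 5296 genes, and it was 0.0911, 0.0936 and 0.0957. They encode an rRNA methyltransferase, a protein of ribosome assembly and invertase, and in pah1Δ against WT they were at -0.60, -0.57 and -0.57. Nearest to MF(ALPHA)1 were COS111 (0.137), PDC6 (0.176), a minor pyruvate decarboxylase gene, and YRO2 (0.183), at 1.72, 1.75 and 1.78 in pah1Δ against WT.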

How the data were processed

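The authors deposited unnormalized read counts, per the file headers, beside FPKM values and a gene length in bases. The deposited FPKM are counts over gene size and a library total that, as the values imply, was 0.0158% to 0.0225% above the summed counts. HISAT2 2.2.1, HTSeq 0.6.1 and build R64 were used, per the submitters' processing notes; strand setting and handling of reads with several matches: not given in the sources used here. The 4 empty lines were dropped, and 0 columns were left unused.

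Counts were tested in R 4.3.3 with edgeR 4.0.16: filterByExpr (6150 genes), TMM scaling and 1 robust quasi-likelihood fit with a mean per genotype over all 9 libraries (6 residual degrees of freedom; the biological coefficient of variation was 0.106). Calls needed an adjusted p (Benjamini-Hochberg, all genes) under 0.05, and the SE is the size of the log2 fold change over the square root of F. CPM is the count scaled by library size and TMM factor. The steps were tested on simulated data. Depth was 9205454 to 12795803 counts per library, and the alpha-factor genes and STE3 had the lowest counts of the members.

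Alternatives were RLE factors and library size only, no filter and a mean CPM of at least 10, an adjusted p under 0.01, DESeq2 1.42.0, limma 3.58.1 (voom, and on log2 FPKM with a pseudocount of 1 or 0.1), a replicate block, a length trend removed, the 2 groups alone, and each library left out. The members and gene lists were chosen with earlier results of these data known. All members and cassette genes are named, with up to 4 genes of each other list by smallest adjusted p and the 3 genes nearest in profile. Sequences come from the R64 reference; of the table's identifiers 6045 matched it, 5991 with the same start and end. The 600-base window and the split of neighbours by side were chosen after seeing the data.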

Additional observations from a re-analysis of the deposited data

Results flagged for a closer look

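For 5 genes the effect of the pah1Δ deletion differed from that of dgk1Δ by the direct test between them (edgeR quasi-likelihood test, Benjamini-Hochberg adjusted p over all genes). The difference was -0.92 for STE6, -0.79 for STE2, -0.69 for MFA2 and -0.46 for BAR1 on the log2 scale, all lower in pah1Δ, and 1.78 for MF(ALPHA)1, higher in pah1Δ. In each case all 3 pah1Δ libraries lay on the same side of all 3 dgk1Δ libraries. The same held for 25.2% of all genes with pah1Δ higher and for 23.4% with pah1Δ lower. The 5 genes were picked by this same test, so the separation adds no support to it. Over all genes 25.1% were called in this comparison.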

How the results depend on the processing

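Of the 10 genes, 8 were called in pah1Δ against WT, 1 in dgk1Δ against WT and 5 in pah1Δ against dgk1Δ. The shares of all genes called were 29.2%, 1.92% and 25.1% in that order. The first count was 5 at an adjusted p under 0.01 and 6 to 7 with 1 library left out. The second was 2 with DESeq2, with the length trend removed, and with a replicate block and the length trend removed, and 1 with any library left out. The third was 9 with only the 2 groups compared and 5 to 8 with 1 library left out, the 8 without WT replicate 1. The replicate block alone gave 7, 1 and 5. Same-numbered libraries did not deviate together (correlations -0.67 to 0.557), so the numbers were not taken as pairs.

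Signs turned round only for values that were not called. SAG1 in pah1Δ against WT was -0.0111 with the length trend removed and -0.005 with the block as well. HMRA1 in pah1Δ against dgk1Δ was -0.0172 and -0.0347 in those fits. ASG7 in pah1Δ against WT was 0.0369 with library size only, and 0.0553 and 0.0615 on log2 FPKM. With 1 library left out, pah1Δ against WT gave -0.10 to 0.21 (SAG1), -0.12 to 0.32 (HMRA1) and -0.18 to 0.16 (ASG7). In dgk1Δ against WT the ranges were -0.0077 to 0.35 (STE6), -0.19 to 0.082 (AGA2), -0.0895 to 0.26 (MF(ALPHA)1), -0.34 to 0.0305 (MF(ALPHA)2), -0.22 to 0.0839 (SAG1) and -0.0579 to 0.24 (HMRA1). Between pah1Δ and dgk1Δ they were -0.0143 to 0.24 (SAG1) and -0.17 to 0.27 (HMRA1). The cause was not tested.

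Counts of called genes in pah1Δ against WT ran from 4 to 6 a-specific genes lower. By edgeR 12.6% of all genes were called lower in that comparison. Among the other lists, lower calls ran from 0 to 4 (regulators), 1 to 5 (processing), 2 to 8 (signalling core) and 1 to 5 (pheromone-induced). For pah1Δ against dgk1Δ, alpha-specific genes higher ran from 0 to 3, and lower calls from 0 to 2 (regulators), 0 to 5 (processing), 3 to 7 (pheromone-induced) and 2 to 6 (haploid-specific). There edgeR called 14.2% of all genes higher and 10.8% lower.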

Other observations

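Genes that the a1-alpha2 repressor keeps off in diploid cells, and that haploid cells of both types express, were counted separately. Of 12 such genes 4 fell and 0 rose in pah1Δ against WT by edgeR, with a median log2 fold change of -0.16. Over all genes 29.2% were called, 12.6% lower and 16.6% higher. The 4 were STE4 (-0.50), FAR1 (-0.56), HO, the endonuclease of mating-type switching (-0.37), and GPA1 (-0.21). The GPA1 call was kept in 7 of 21 alternatives. STE4, FAR1 and GPA1 are also in the signalling core. FAR1 had 103, 96.3 and 106 CPM in pah1Δ, against 135, 153 and 160.0 CPM in WT, with no overlap. In dgk1Δ against WT 0 of 12 were called by edgeR, DESeq2 or limma-voom, with 1 at an unadjusted p under 0.05, and the median was -0.02. Between pah1Δ and dgk1Δ 3 were lower in pah1Δ (median -0.13; 10.8% of all genes).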
